A study of Mus musculus with 10 samples.

Results

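Hypothalamus was compared with muscle, both electrically excitable tissues, on the arrays of adult female C57BL/6 mice. The comparison used 4 of the 10 arrays of a study of 5 tissues: 1 hypothalamus and 1 muscle array on each of 2 Affymetrix mouse chips, A and B. Hypothalamus is the part of the brain below the thalamus that joins the nervous and hormonal systems. The labels name neither the muscle dissected nor the number of animals behind an RNA sample, so pooling of animals is not given in the sources used here. Both tissues were handled alike: total RNA was taken with Trizol and hybridised as biotin-labelled cRNA. Pancreas, liver and white adipose tissue of the same kind of mouse were hybridised too and enter the scaling of the arrays and the choice of the probe set that stands for a gene, and their values are given only where a gene is set against tissues other than these. The arrays called white adipose here carry that tissue as their source label, while their titles read preconfluent, a word for cells in culture, so what they hold is less sure. Probe sets other than controls entered where at least 1 of the hypothalamus and muscle values was larger than the noise of its array, and 4383 of 13057 (33.6%) did so.

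Neurons and muscle fibres both carry action potentials, and both turn a change in membrane voltage into a calcium signal. In neurons that signal releases transmitters or peptide hormones, and the hypothalamus is known for neurons that make the peptides vasopressin, oxytocin, somatostatin and thyrotropin-releasing hormone. In muscle fibres it starts the sliding of actin on myosin, paid for by creatine phosphate, glycogen and fat. Many enzymes and pumps of these paths come as pairs of related genes, of which a form found widely or in brain and a form found in muscle are known.

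Each value is an intensity on a linear scale, the brightness of a probe set after a signal was subtracted, so values below 0 occur. Arrays were brought to a common trimmed mean within a chip. The noise bound of an array is the size of its 1st percentile, and was 258.2 for hypothalamus and 1065 for muscle on chip A, and 649.5 for hypothalamus and 1640 for muscle on chip B. To be called higher in a tissue, a probe set needed an intensity there of at least 4 times the other tissue's value and at least 4 times the other array's bound. Where the other value lay under its bound, the fold is given as "at least". Just inside and just outside the bound lay hypothalamus values of 258.6 and 256.6 and muscle values of 1066 and 1065 on chip A, and hypothalamus values of 650.2 and 649.2 and muscle values of 1651 and 1638 on chip B. With 1 array per tissue and chip there are no replicates, so no value has an error between animals, no difference has a test, and precision is limited by how few arrays there are.

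The bounds and the upper ends of the arrays were unequal, and both set which folds can be seen. The highest value was 13150 in hypothalamus and 91639 in muscle on chip A, and 19825 in hypothalamus and 176723 in muscle on chip B. Set over the muscle bound, the highest hypothalamus value gives at most 12.3-fold on chip A and 12.1-fold on chip B, while the highest muscle value gives 355-fold and 272-fold over the hypothalamus bound. A call for hypothalamus therefore needed a value of at least 4262 on chip A and 6558 on chip B, and a call for muscle 1033 and 2598. Medians were 158 in hypothalamus and 219 in muscle on chip A, and 100 and 144 on chip B. For 76 probe sets on both chips, 12 were measured above the bound in both tissues on both chips. Most of the 12 are control probe sets of actin, Gapdh and spiked-in RNA, which were left out of the comparison. In the deposited values the log2 ratio of the 12 differed between chips by a median of 0.22 and at most 0.59. That difference is therefore no measure of how well the ratios of the compared probe sets repeat.

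Of the 4383 probe sets, 2568 were above the bound in hypothalamus only, 340 in muscle only and 1475 in both. Among these 1475 the median log2 ratio of hypothalamus over muscle was -0.72, with quartiles of -1.46 and 0.12, and 759 (51.5%) lay within 2-fold. In all, 131 probe sets were called higher in hypothalamus, 2.99% of those compared, and 454 were called higher in muscle, 10.4%. The split between the directions depended on the settings: hypothalamus held 22.4% of the calls, but 35.3% with scaling to the 75th percentile, 49.3% with scaling to spiked-in controls, 53.9% with quantile normalization, and 42.7% with the higher bound of the tissues used for both arrays. Under these 4 settings 176 to 336 of the 454 muscle calls were kept. Of the 131 hypothalamus calls, 89 were kept with the 0.5th percentile as the bound and 85 without family, rules-relaxed and incomplete designs.

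By named gene, with 1 probe set standing for each of 6137 genes, 73 were called higher in hypothalamus (1.19%) and 280 in muscle (4.56%). These shares are the background for every gene list below. For counts of genes above neither bound, the background is 3377 of the 6137 genes. Where another probe set named the same gene, 13 of 19 such hypothalamus genes and 20 of 91 such muscle genes had another that was called the same way, and none had one called the other way. With the higher bound used for both arrays, which hypothalamus calls pass by construction, 92 muscle genes stayed called. Over all 6137 genes the median log2 ratio was 0 with low values raised to the higher bound of the chip, and -0.74 for the 960 genes measured in both tissues.

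The markers of the tissues followed the labels. Syp, synaptophysin of the synaptic vesicle membrane, had 9613 in hypothalamus and -70.3 in muscle, at least 5.86-fold higher. Thy1, a surface glycoprotein of neurons, had 15353 in hypothalamus and 278.1 in muscle, at least 9.36-fold higher. Ckm, the creatine kinase of muscle, had 1945 in hypothalamus and 159172 in muscle, 81.8-fold higher in muscle, and a further probe set gave 383.1 and 176723. Pvalb, the calcium buffer parvalbumin, found both in fast muscle and in some neurons, had 1251 in hypothalamus and 91876 in muscle, 73.5-fold higher in muscle, and its other probe sets gave 219.4 and 118.1 in hypothalamus, both under the bound, and 83074 and 58067 in muscle. Neuron markers were thus above the bound in hypothalamus alone, while the muscle markers read above the hypothalamus bound by 1 probe set each. In bulk tissue, fewer cells of a type and less RNA per cell cannot be told apart, and this holds for every difference here.

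Peptide hormone genes were among those with the largest hypothalamus folds. Of 24 genes for neuropeptides, granins and their processing on the arrays, 7 were called higher in hypothalamus (29.2%) and 0 in muscle, and the median log2 ratio of the list with low values at the common bound was 0.90, against 0 over all genes. Oxt, the precursor of oxytocin, had 11298 in hypothalamus and -1828 in muscle, at least 10.6-fold higher. Avp, the precursor of vasopressin, had 10766 in hypothalamus and -1986 in muscle, at least 10.1-fold higher. Resp18, a protein of endocrine secretory granules, had 11553 in hypothalamus and 373.8 in muscle, at least 10.8-fold higher and the highest fold of any hypothalamus gene. Pcsk1n, an inhibitor of a prohormone convertase, had 16442 in hypothalamus and 1484 in muscle, at least 10.0-fold higher. These 4 fold values lie close to the highest that the muscle bound allows.

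The other 3 called members were granule proteins and a release-inhibiting hormone. Scg5, a chaperone of another prohormone convertase, had 11894 in hypothalamus and 569.2 in muscle, at least 7.25-fold higher. Scg2, secretogranin II, had 10350 in hypothalamus and 74.3 in muscle, at least 6.31-fold higher. Sst, somatostatin, had 9720 in hypothalamus and -1249 in muscle, at least 5.93-fold higher, and both of its probe sets were called. Trh, thyrotropin-releasing hormone, missed the threshold at 6313 in hypothalamus and 1112 in muscle, at least 3.85-fold, and Chgb, chromogranin B, had 5146 and 227.9, at least 3.14-fold. Ptprn, a granule membrane protein of the phosphatase family, was the member measured in both tissues, with 6362 in hypothalamus and 4940 in muscle, 1.29-fold. So 20 of the 21 members above a bound were above it in hypothalamus without being measured in muscle. Of all 4383 probe sets compared 2568 were above the hypothalamus bound alone and 340 above the muscle bound alone, and the hypothalamus bound is the lower.

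The promoters of Scg2 and Sst are shown because both hold the cyclic AMP response element TGACGTCA, bound by transcription factors that relay cyclic AMP and calcium signals. The windows run from 250 bases before to 50 after the gene's start in RefSeq on GRCm38.p6, minus strand, 5′ to 3′, with the element in capitals. The Scg2 window is chr1:79439977-79440276 and the Sst window is chr16:23890795-23891094.
Scg2: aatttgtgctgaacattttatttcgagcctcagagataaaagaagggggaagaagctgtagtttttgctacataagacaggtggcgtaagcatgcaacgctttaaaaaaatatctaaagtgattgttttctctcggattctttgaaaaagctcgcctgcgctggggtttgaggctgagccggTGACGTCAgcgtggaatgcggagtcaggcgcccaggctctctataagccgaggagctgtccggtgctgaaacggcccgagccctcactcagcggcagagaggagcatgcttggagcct
Sst: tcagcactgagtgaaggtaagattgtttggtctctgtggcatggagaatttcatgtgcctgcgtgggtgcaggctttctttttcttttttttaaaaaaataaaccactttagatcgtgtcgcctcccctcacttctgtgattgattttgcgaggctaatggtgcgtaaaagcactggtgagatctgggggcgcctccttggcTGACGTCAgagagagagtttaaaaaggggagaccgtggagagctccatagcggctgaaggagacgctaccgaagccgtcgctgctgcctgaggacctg
Searched on both strands, TGACGTCA reads the same on either. It was found in 7 of the 56 hypothalamus genes with a window (12.5%), in 3 of 232 muscle genes (1.29%), and in 153 of 4891 genes of the arrays with a window (3.13%). Of all 32851 windows in the table, 1.79% hold it. A match is a description of letters and not of binding.

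Few genes of transmitter release and transmitter synthesis were called, though at shares above the 1.19% of all genes called higher in hypothalamus. Among 20 genes of synaptic vesicles and release, 2 were called higher in hypothalamus (10%) and 0 in muscle, namely Syp and Sncb. Sncb, beta-synuclein of nerve terminals, had 7636 in hypothalamus and -175.4 in muscle, at least 7.17-fold higher. Dnm1, the dynamin of synaptic vesicle retrieval, was measured in both with 5045 in hypothalamus and 2434 in muscle, 2.07-fold. Slc32a1, the vesicular transporter of GABA and glycine, had 2893 and 41.1, at least 2.72-fold. Of the 12 members above a bound, 11 were above the hypothalamus bound alone. So were 2568 of the 4383 probe sets compared, with 340 above the muscle bound alone, and the hypothalamus bound is the lower on each chip.

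Of 13 genes of transmitter synthesis and uptake, 1 was called higher in hypothalamus (7.69%) and 0 in muscle. Above neither bound were 7 of the 13, beside 3377 of all 6137 genes. Gad1, which makes GABA from glutamate, had 8252 in hypothalamus and 138.5 in muscle, at least 5.03-fold higher. Abat, which breaks GABA down, had 4205 and 28.1, at least 3.95-fold and just under the threshold. Of 30 transmitter receptors, 24 were in neither tissue above the bound and 0 were called higher in hypothalamus. The 1 receptor called higher in muscle was Chrna7, a nicotinic receptor subunit of neurons, with 194.9 in hypothalamus and 1413 in muscle, at least 5.47-fold. This call was lost with quantile normalization, with the 0.5th percentile as the bound and with the higher bound used for both arrays. The receptor genes therefore gave few values that can be compared.

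Cytoskeletal genes of axons included members called in either direction. Of 35 on the arrays, 5 were called higher in hypothalamus (14.3%) and 1 in muscle (2.86%). Tuba1a, an alpha-tubulin of growing neurons, had 14523 in hypothalamus and 1878 in muscle, 7.73-fold higher with both values measured. Stmn1, which loosens microtubules, had 7764 and -520, at least 4.74-fold higher, and Gap43, a protein of growth cones, had 4677 and 515.1, at least 4.39-fold higher. Both of these calls were lost with the 0.5th percentile as the bound. App, the amyloid precursor protein, was measured in both with 12347 in hypothalamus and 8225 in muscle, 1.5-fold. Kif1b, a kinesin motor, was called for muscle with 20.9 in hypothalamus and 1182 in muscle, at least 4.58-fold, a value just above the muscle bound, and this call was lost with scaling to spiked-in controls, with quantile normalization, with the 0.5th percentile as the bound, and with the higher bound for both arrays.

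Signalling genes of neurons held 4 members called higher in hypothalamus of 27 (14.8%) and 0 in muscle, with a list median log2 ratio of 0.68 at the common bound. Gng3, a G protein gamma subunit of neurons, had 10564 in hypothalamus and 318.7 in muscle, at least 9.91-fold higher. Calb2, the calcium buffer calretinin, had 10600 and 1224, at least 6.47-fold higher. Calm2, a calmodulin gene, was measured in both with 13843 in hypothalamus and 2490 in muscle, 5.56-fold higher. Pcp4, a regulator of calmodulin, had 8749 and 197.8, at least 5.34-fold higher. All 4 act on G proteins or calcium, subjects by which the list was drawn up. Of 21 ion channel and pump genes of neurons, 0 were called higher in hypothalamus and 14 were above neither bound. Vdac1, the anion channel of the outer mitochondrial membrane, was called for muscle with 4773 and 19685, 4.12-fold, but its other probe set gave 3672 and 5813 and was not called. The call of Vdac1 was lost with the scalings to the 75th percentile, spiked-in controls and quantiles.

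Genes listed for glia were also among those called higher in hypothalamus. Of 17 astrocyte genes 4 were called higher in hypothalamus (23.5%) and 1 in muscle (5.88%). Clu, the secreted chaperone clusterin, had 12139 in hypothalamus and 1451 in muscle, 8.37-fold higher. Apoe, the lipid carrier apolipoprotein E, had 8666 and -558.2, at least 8.13-fold higher, and Mt3, the metallothionein of brain, had 7891 and -70.2, at least 7.41-fold higher. Ptgds, prostaglandin D synthase, had 6812 and -1023, at least 6.39-fold higher. Clu read higher still in pancreas (35231) and liver (15597), and Apoe in liver (10312) and white adipose (11174). The calls of Clu and Apoe thus set hypothalamus apart from muscle but not from those tissues, while Mt3 and Ptgds were highest in hypothalamus. Ndrg2, a member of this list that muscle is also known to express, was called for muscle with 9979 in hypothalamus and 52192 in muscle, 5.23-fold, while its other probe set read 7332 and 5715. The call of Ndrg2 was lost with quantile normalization. Of 12 myelin genes, Mobp, a myelin protein of oligodendrocytes, had 7340 and 125.3, at least 6.89-fold higher in hypothalamus, and Gsn, gelsolin, had 608.5 and 3256, at least 5.01-fold higher in muscle, a call lost with the scalings to the 75th percentile, spiked-in controls and quantiles, with the 0.5th percentile as the bound and with the higher bound for both arrays. None of the 7 pituitary genes was above a bound in either tissue, with hormone values such as 421.9 for Gh and 185.6 for Prl in hypothalamus, and -497.9 and 560.2 in muscle.

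The remaining genes with the largest hypothalamus folds were of varied kinds. Ndn, the growth suppressor necdin of neurons, had 11358 in hypothalamus and -67.2 in muscle, at least 10.7-fold higher. Tspyl4, of a family related to nucleosome assembly proteins, had 9641 and 350.8, at least 9.05-fold higher, and Slc22a17, of an organic cation transporter family, had 9069 and -153.3, at least 8.51-fold higher. A gene known only as 6330403K07Rik had 8810 and 70.2, at least 8.27-fold higher.

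By the probe set that stands for each gene, the 6 largest folds, each higher in muscle, were of contractile filament genes, and among all probe sets the further one of Ckm, at least 272-fold, came between them. Of 20 genes of the thin filament and Z disc 16 were called higher in muscle (80%) and 0 in hypothalamus, with a list median log2 ratio of -3.17 at the common bound. Of 10 genes of the thick filament and M band 7 were called higher in muscle (70%) and 0 in hypothalamus, with a median of -3.29. These counts ranged from 14 to 16 and stayed at 7 under the scalings to the 75th percentile, spiked-in controls and quantiles and with the higher bound for both arrays. Actn3, the Z disc alpha-actinin of fast fibres, had -176 in hypothalamus and 91639 in muscle, at least 355-fold higher. These 6 folds were smaller with quantile normalization, at 44.9 to 64.8, and with the higher bound for both arrays, at 56.4 to 86, and all stayed called.

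Troponins, the calcium switch of the thin filament, followed. Tnnt3 of fast fibres had -55.7 in hypothalamus and 76321 in muscle, at least 296-fold higher. Tnnc2, the fast calcium-binding subunit, had 123.3 and 71596, at least 277-fold higher, and Tnni2, the fast inhibitory subunit, had -10.9 and 60133, at least 233-fold higher. Tnnc1, the calcium-binding subunit of slow fibres and heart, had 66.6 in hypothalamus and 21935 in muscle, at least 85.0-fold higher. Genes of fast and of slow fibres were thus both above the muscle bound, and the labels do not say which muscle was taken. Tpm2, the beta tropomyosin, had 36.8 and 10241, at least 39.7-fold higher, and Myoz1, a Z disc protein that binds calcineurin, had 401.0 and 80571, at least 124-fold higher.

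On the thick filament, myosin light chains led. Myl1 had 78.6 in hypothalamus and 62209 in muscle, at least 241-fold higher. Mylpf, the regulatory light chain of fast fibres, had 30.8 and 46101, at least 179-fold higher, and Myl3, a light chain of slow fibres and heart, had -188.6 and 36990, at least 57.0-fold higher. Myh4, the myosin heavy chain of the fastest fibres, had 277.9 in hypothalamus and 35445 in muscle, at least 54.6-fold higher. The hypothalamus values of these 4 genes were all under the bound. Capzb, which caps actin filaments in all cells, belongs to the thin filament list and was measured in both with 4981 in hypothalamus and 4628 in muscle, 1.08-fold.

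Acta1, the actin of skeletal muscle, had 320.3 in hypothalamus and 73140 in muscle, 228-fold higher, with the hypothalamus value only just above its bound. Atp2a1, which pumps calcium back into the sarcoplasmic reticulum in fast fibres, had -75.4 in hypothalamus and 126228 in muscle, at least 194-fold higher. Their promoter windows, on GRCm38.p6 and the minus strand at chr8:123894726-123895025 and chr7:126463024-126463323, are shown because they carry the letters of sites known in muscle promoters. Capitals mark the E box CAGCTG, the letters bound by MyoD-type factors, and in Acta1 also the letters TATAAA of the core promoter and a CArG box, which serum response factor is known to bind.
Acta1: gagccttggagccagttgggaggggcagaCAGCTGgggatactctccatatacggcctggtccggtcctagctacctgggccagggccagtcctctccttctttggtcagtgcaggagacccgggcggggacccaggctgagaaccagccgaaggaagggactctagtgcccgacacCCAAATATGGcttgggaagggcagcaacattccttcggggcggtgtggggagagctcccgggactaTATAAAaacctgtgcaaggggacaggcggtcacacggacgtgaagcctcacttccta
Atp2a1: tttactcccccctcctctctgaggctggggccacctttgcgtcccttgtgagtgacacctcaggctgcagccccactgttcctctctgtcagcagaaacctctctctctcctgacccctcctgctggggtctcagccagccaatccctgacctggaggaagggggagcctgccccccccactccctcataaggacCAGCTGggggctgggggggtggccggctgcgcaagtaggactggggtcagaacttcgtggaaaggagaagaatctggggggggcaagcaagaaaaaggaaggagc
On both strands CAGCTG, which reads the same on either, was found in 61 of 232 muscle genes with a window (26.3%), in 8 of 56 hypothalamus genes (14.3%), in 896 of 4891 genes of the arrays (18.3%) and in 16.3% of all windows. A CArG box was found in 7 muscle genes (3.02%), 1 hypothalamus gene (1.79%), 95 genes of the arrays (1.94%) and 1.63% of all windows, and TATAAA in 35 muscle genes (15.1%), 11 hypothalamus genes (19.6%), 614 genes of the arrays (12.6%) and 13.6% of all windows. The capital stretches of Acta1 do not overlap each other.

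Genes that couple the membrane to calcium release were called in muscle alone. Of 23 genes of excitation and calcium handling 6 were called higher in muscle (26.1%) and 0 in hypothalamus, and 13 were above neither bound. Ryr1, the calcium release channel of muscle, had 250.1 in hypothalamus and 22240 in muscle, at least 34.2-fold higher. Cacna1s, the voltage sensor of the muscle membrane, had 21.9 and 3748, at least 14.5-fold higher, but the call was lost with the higher bound used for both arrays. Atp2a2, the calcium pump of slow muscle, heart and many other cells, was measured in both with 2350 in hypothalamus and 11834 in muscle, 5.04-fold higher in muscle. Ache, which splits acetylcholine at the nerve-muscle junction and in brain, had 3755 in hypothalamus and 2008 in muscle, 1.87-fold, and Fkbp1a, a binding protein of ryanodine receptors, had 7324 and 2754, 2.66-fold. Neither Ache nor Fkbp1a passed the threshold, and both values are the opposite way to the called members.

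Fuel genes moved towards muscle as well, with named isoforms the other way. Of 29 genes of glycolysis and glycogen 13 were called higher in muscle (44.8%) and 1 in hypothalamus (3.45%), and the count for muscle lay between 7 and 12 under the other scalings. Pygm, the glycogen phosphorylase of muscle, had 437.6 in hypothalamus and 72742 in muscle, 166-fold higher. Eno3, the muscle enolase, had -109.2 and 87536, at least 135-fold higher. Hk2, the hexokinase of insulin-sensitive tissues, had 154.8 and 7813, at least 12-fold higher. Gpd1, which links glycolysis to glycerol phosphate, had 1240 and 14199, 11.5-fold higher. Aldoa, an aldolase, had 13719 in hypothalamus and 152585 in muscle, 11.1-fold higher, and Gapdh had 16179 and 89569, 5.54-fold higher. Quantile normalization ended the call of Aldoa and turned Gapdh round, to 0.89 for muscle over hypothalamus, so the direction of Gapdh depends on the scaling. Scaling to spiked-in controls ended the call of Gapdh. Eno2, the enolase of neurons, was the list's hypothalamus gene with 5196 in hypothalamus and 406.9 in muscle, at least 4.88-fold higher.

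Of 13 genes of phosphagen, purine and oxygen handling, 4 were called higher in muscle (30.8%) and 2 in hypothalamus (15.4%). Mb, the oxygen store myoglobin, had 413.9 in hypothalamus and 82465 in muscle, at least 127-fold higher, while its other probe set had -61.5 and 189.7, under both bounds. Adssl1, an enzyme of the purine cycle in muscle, had 305.3 and 4684, 15.3-fold higher. Ckb, the creatine kinase of brain, had 12553 in hypothalamus and 263.0 in muscle, at least 7.66-fold higher, and Ckmt1, the mitochondrial form found outside muscle, had 6725 and 821.2, at least 4.10-fold higher in hypothalamus. The list therefore held members called both ways.

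Genes of fat use were higher in muscle: 8 of 20 were called there (40%) and 0 in hypothalamus, with 5 to 7 called under the other scalings and with the higher bound for both arrays. Lpl, which frees fatty acids from blood lipids, had 172.1 in hypothalamus and 19582 in muscle, at least 75.9-fold higher. Cd36, a fatty acid carrier of the cell surface, had -8.93 and 5435, at least 8.37-fold higher. Acaa2, an enzyme of beta oxidation, had 891.2 and 5659, 6.35-fold higher, and Slc25a20, which carries acylcarnitine into mitochondria, had 248.7 and 2049, at least 7.94-fold higher. The calls of Cd36 and Slc25a20 were lost with the higher bound used for both arrays, and that of Slc25a20 with quantile normalization too. Of 16 genes of the citrate cycle and pyruvate, 4 were called higher in muscle (25%), but only 1 with scaling to the 75th percentile, with spiked-in controls, or with the higher bound used for both arrays. Idh2, the mitochondrial isocitrate dehydrogenase, had 1118 in hypothalamus and 6147 in muscle, 5.50-fold higher. Cs, citrate synthase, had 861.3 and 3885, 4.51-fold higher, a call kept with quantile normalization and lost with the 3 settings just named. Mdh1, the cytosolic malate dehydrogenase, had 8768 and 9349, 1.07-fold.

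Nuclear genes of oxidative phosphorylation were measured in both tissues more often than those of any list above. Of 51 on the arrays 41 were above both bounds, with a median log2 ratio of -0.90, against -0.74 over all genes measured in both. Of the 51, 2 were called higher in hypothalamus (3.92%) and 5 in muscle (9.80%), against 1.19% and 4.56% of all genes. Both hypothalamus genes are subunits of cytochrome oxidase with a muscle form. Most subunits lay within a few fold: Cox4i1, a subunit of cytochrome oxidase, had 13563 in hypothalamus and 46801 in muscle, 3.45-fold, and Atp5j2, a subunit of ATP synthase, had 8326 and 7741, 1.08-fold. Sdhb of succinate dehydrogenase had 3354 and 14481, 4.32-fold higher in muscle, and Atp5g1 of ATP synthase had 4511 and 20759, 4.60-fold higher in muscle. Both calls were lost with scaling to spiked-in controls and with quantile normalization, and that of Sdhb with scaling to the 75th percentile too.

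**Figure D1:**
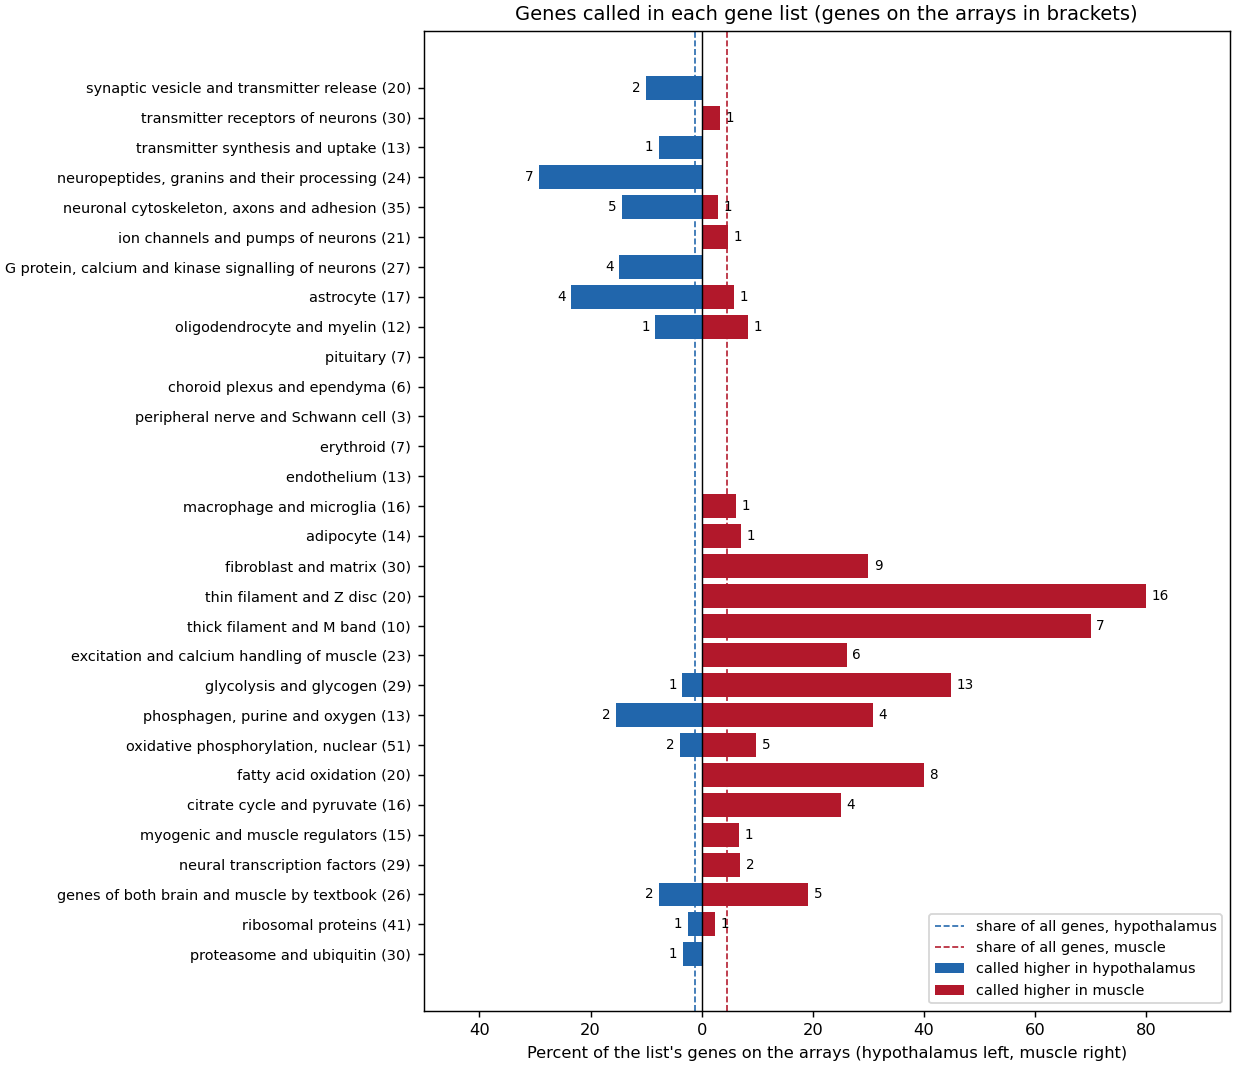
Percent of each list's genes on the arrays that were called at least 4-fold higher in hypothalamus (blue, left) and in muscle (red, right), with the number called beside each bar and the shares over all 6137 genes as dashed lines. Neuropeptide genes reach 29.2% on the left, and thin and thick filament genes 80% and 70% on the right.

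Genes of other cells also differed, and their part in the results was not tested. Of 30 fibroblast and matrix genes 9 were called higher in muscle (30%) and 0 in hypothalamus, with summed intensity of 26681 in hypothalamus and 85889 in muscle. Dcn, the proteoglycan decorin, had 832.8 in hypothalamus and 23958 in muscle, 28.8-fold higher. Lgals1, galectin 1, had 434.8 and 9098, at least 14.0-fold higher, and Mmp2, a matrix protease, had 310.3 and 2588, 8.34-fold higher, whose call was lost with the higher bound for both arrays, under which 3 matrix genes stayed called. Sparc, a matrix protein that brain also makes, was higher in hypothalamus at 13987 and 4041, 3.46-fold, and did not pass the threshold. Matrix genes thus read mainly, and not wholly, towards muscle.

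Of the blood, fat, vessel and macrophage lists, none held more than 1 called gene. The 1 called for muscle was 7.14% of the adipocyte list and 6.25% of the macrophage list, against 4.56% of all genes. Hba-a1, alpha globin, had 6135 in hypothalamus and 23972 in muscle, 3.91-fold, and 0 of 7 erythroid genes were called, with summed intensity of 11069 in hypothalamus and 36987 in muscle. Of 14 adipocyte genes 9 were above neither bound, 2 above the hypothalamus bound alone and 1 above the muscle bound alone, and 1 was called, Car3, the carbonic anhydrase of muscle and fat, with -13.9 in hypothalamus and 10053 in muscle, at least 38.9-fold higher. The fat hormone gene Adipoq had 66.6 in hypothalamus and 988.2 in muscle, and the lipid droplet gene Cidec 61.5 and -217.9, all under the bounds. Of 13 endothelial genes 12 were above neither bound, and Eng, a receptor of vessel cells, had 716.7 and 2506, 3.50-fold. Of 16 macrophage genes 7 were above neither bound, 5 above the hypothalamus bound alone and 1 above the muscle bound alone, and 1 was called, Fcer1g, a receptor chain of blood cells, with 490.3 and 1969, 4.02-fold higher in muscle, a call lost with all scalings tried and with the higher bound. Choroid plexus and peripheral nerve lists, of 6 and 3 genes, held 0 called genes.

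Transcription factors were mostly under the bounds. Of 29 neural factors 22 were above neither bound, 0 were called higher in hypothalamus and 2 in muscle. Nr4a1, an early response gene of many tissues, had 992.6 in hypothalamus and 9316 in muscle, 9.39-fold higher. Nr5a1, a factor of the ventromedial hypothalamus and of steroid-making organs, had 323.2 in hypothalamus and 1924 in muscle, 5.95-fold, opposite to what its list name says. Its other probe set read 166.8 and 235.9, and the call was lost with quantile normalization and with the higher bound for both arrays. Of 15 myogenic regulators 1 was called, Mef2c, a factor of muscle and of neurons, with 67.6 in hypothalamus and 3984 in muscle, at least 15.4-fold higher, and its other probe set was not called at -166.8 and 1841. The higher bound for both arrays ended the call of Mef2c. Myod1, the founding member of the myogenic factors, had 111.4 and 839.8, under both bounds.

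Isoform pairs asked whether the form known from brain or from many tissues and the form known from muscle part between these arrays. Of 50 pairs listed, 28 had both members on the arrays. In 5 pairs the members were called in opposite directions, in 13 only the muscle member was called for muscle, in 1 only the first member was called for hypothalamus, and in 9 neither was so called. The muscle member was called for muscle in 18 of 28 pairs, and the first member for hypothalamus in 6. Over all genes, 4.56% were called for muscle and 1.19% for hypothalamus. The level needed for a hypothalamus call was 4262 (chip A) or 6558 (chip B), against 1033 or 2598 for muscle. In the 13 pairs, every first member except Hk1 (7340) and Myl12b (9581) read below that level in hypothalamus. Such members could not be called for hypothalamus, so the counts of 18 and 6 do not weigh the directions evenly. The 5 opposite pairs stayed 5 with scaling to the 75th percentile and with the higher bound for both arrays, and were 6 with spiked-in controls and with quantile normalization and 4 with the 0.5th percentile as the bound, where Eno2 lost its call.

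The 5 opposite pairs belong to energy use and the cytoskeleton. Ckb had 12553 in hypothalamus and 263.0 in muscle, while Ckm had 1945 in hypothalamus and 159172 in muscle. Eno2 had 5196 in hypothalamus and 406.9 in muscle, and Eno3 had -109.2 and 87536. Cox6a1, the widespread form of cytochrome oxidase subunit 6a, had 8651 in hypothalamus and 729.6 in muscle, at least 8.12-fold higher, and Cox6a2, the form of heart and muscle, had -115.4 and 21755, at least 84.3-fold higher in muscle. Cox8a had 11147 in hypothalamus and 2132 in muscle, 5.23-fold higher, and Cox8b, the muscle form of subunit 8, had -115.4 and 14643, at least 56.7-fold higher in muscle. For both subunits, the widespread form was thus lower and the muscle form higher in muscle.

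Actb, cytoplasmic beta-actin, had 7416 in hypothalamus and 1300 in muscle, 5.71-fold higher, and Acta1 went the other way as given above, so that the log2 ratios of this pair differed by 10.3. Another Actb probe set had 4910 in hypothalamus and 931.0 in muscle and was called too, and a further one had 2533 and 162.4, at least 2.38-fold. The control probe sets made from the actin message read the other way, with 3811 in hypothalamus and 32570 in muscle at the 3′ end on chip A. Many probe sets of these pairs, among them those of Actb, Ckb, Cox6a1, Cox6a2 and Cox8b, are of a family design that may bind related messages, and without the family and similar designs 1 opposite pair was left.

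Several pairs parted without reaching the threshold on both sides. Hk1, the hexokinase of brain, had 7340 in hypothalamus and 2582 in muscle, 2.84-fold, beside the muscle call of Hk2. Pygb, the brain glycogen phosphorylase, had 3262 and 139.5, at least 1.99-fold, beside that of Pygm. Calb1, the calcium buffer calbindin, had 1793 and -70.2, at least 1.68-fold, beside that of Pvalb. Slc2a4, the insulin-responsive glucose transporter, had -115.1 in hypothalamus and 4905 in muscle, at least 7.55-fold higher, while Slc2a3, the transporter of neurons, had 515.2 and -10.0. The call of Slc2a4 was lost with quantile normalization and with the higher bound for both arrays. Cfl1, the cofilin of most cells, had 13833 in hypothalamus and 1057 in muscle, at least 8.44-fold higher, and Cfl2, the muscle cofilin, had 99.5 and 561.2, under both bounds. Atp2a2, listed as the first member of the calcium pump pair, was the 1 first member called for muscle.

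Besides actin, all values were above the bounds in 3 pairs, so the ratio of each member is measured and the difference between the log2 ratios does not depend on the scaling of an array that divides by 1 number. Slc25a5, the widespread carrier of ADP and ATP, had 3292 in hypothalamus and 1153 in muscle, 2.86-fold, and Slc25a4, the carrier of heart and muscle, had 4881 and 16586, 3.40-fold in the other direction; the log2 ratios differed by 3.28. Eef1a1, the elongation factor of most cells, had 12415 in hypothalamus and 4672 in muscle, 2.66-fold, and Eef1a2, the form of neurons and muscle, had 10502 and 31556, 3-fold; the log2 ratios differed by 3. Ldhb, the lactate dehydrogenase subunit of heart, had 10229 in hypothalamus and 9399 in muscle, 1.09-fold, and Ldha, the subunit of glycolytic muscle, had 7923 and 30218, 3.81-fold; the log2 ratios differed by 2.05. None of these 6 genes was called by the probe set that stands for it, and another Ldha probe set, with 5521 in hypothalamus and 36558 in muscle, was called for muscle. For all of the 6 except Eef1a2, the probe set is of the family design that may bind related messages. These ratios may therefore not be of each member alone.

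A pair of protein kinase A subunits did not part as listed. Prkar1a, the regulatory subunit of most tissues, was called higher in hypothalamus with 7894 in hypothalamus and 1802 in muscle, 4.38-fold. Prkar1b, the form of neurons, had 2750 and 308.2, at least 1.68-fold, while its other probe set had 9475 and -1789, at least 8.89-fold higher in hypothalamus. Both members thus read towards hypothalamus. The remaining pairs with neither member called were under the bounds in most values, such as Neurod1 with 38.8 in hypothalamus and 36.1 in muscle.

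**Figure D2:**
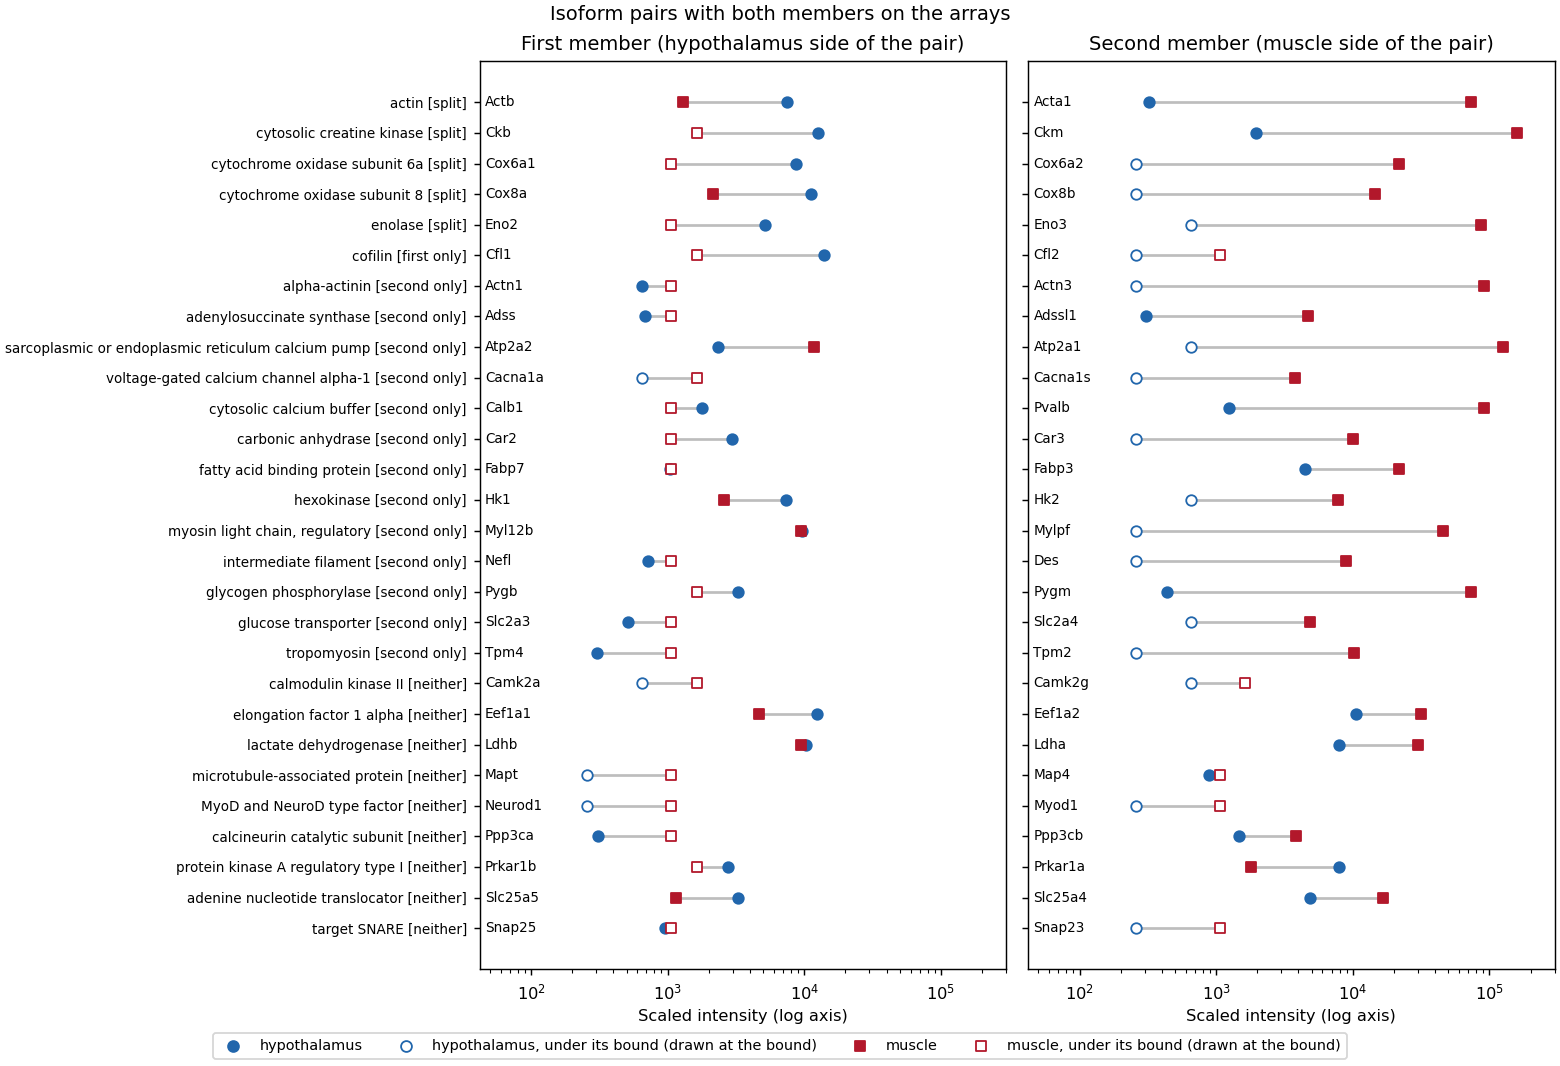
Scaled intensity (log axis) of the first member (left panel) and the second member (right panel) of 28 isoform pairs in hypothalamus (blue circles) and muscle (red squares), with open symbols for values under the bound, drawn at the bound. In the 5 pairs at the top, such as Ckb with 12553 in hypothalamus and Ckm with 159172 in muscle, the panels run in opposite directions.

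Some genes were high in both tissues and low in the others. A gene was counted where the lower of its hypothalamus and muscle values was above its bound and at least 2 times the highest value or bound of pancreas, liver and white adipose. This held for 12 of 6137 genes (0.196%) and for 16 probe sets, and for 85 probe sets with scaling to spiked-in controls, 39 with quantile normalization and 21 with scaling to the 75th percentile. Eef1a2 had 10502 in hypothalamus and 31556 in muscle, against -30.0 in pancreas, 132.7 in liver and 22.1 in white adipose, all under their bounds. Its lower value was 9 times the highest of those values and bounds, and the next of the 12 was Gaa at 3.90 times.

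Atp1b1, the beta subunit of the sodium pump that restores the membrane after action potentials, had 14635 in hypothalamus and 8924 in muscle, against 2041 in pancreas, 1992 in liver and 1172 in white adipose. Ldhb had 10229 in hypothalamus and 9399 in muscle, against -553.1, 41.9 and 1438 in pancreas, liver and white adipose. Slc25a4 had 4881 in hypothalamus and 16586 in muscle, against 351.3, 64.9 and 1830. Fabp3, the fatty acid binding protein of heart, muscle and brain, had 4462 in hypothalamus and 21853 in muscle, against 614.4, -297.3 and -136.7. Fabp3 was also called higher in muscle, 4.90-fold, a call lost with quantile normalization and with spiked-in controls, and Atp2a2 was called too. Gaa, the lysosomal enzyme that breaks down glycogen, had 7952 in hypothalamus and 4550 in muscle, against 412.3, 969.8 and 1039. Fkbp3, a nuclear prolyl isomerase, had 3921 in hypothalamus and 5059 in muscle, against 591.4, 950.9 and 1249. Polr2m, a protein that binds RNA polymerase II, had 3990 in hypothalamus and 3730 in muscle, against 1137, 999.7 and 1463. The remaining genes were Atp2a2, Timm8b of mitochondrial protein import, Gstm5, a glutathione transferase, and Uqcc2, an assembly factor of the respiratory chain, and their lower values lay between 2350 and 3582.

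**Figure D3:**
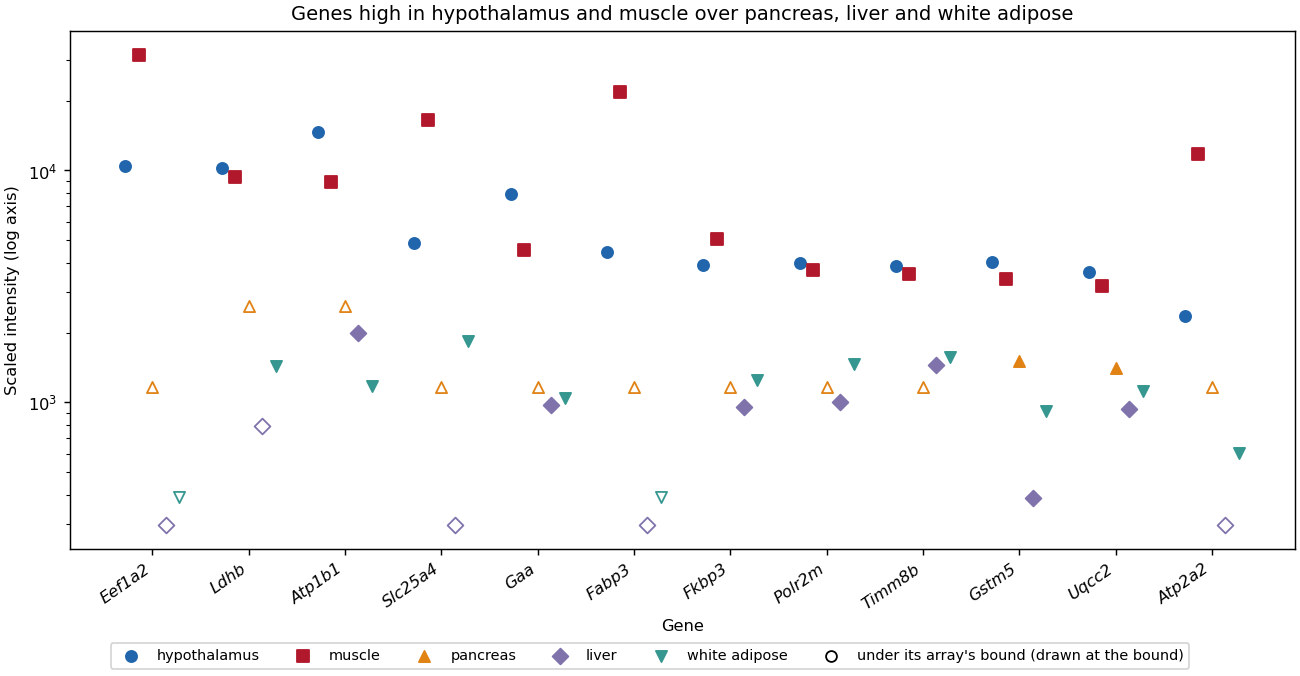
Scaled intensity (log axis) of the 12 genes high in both tissues, in hypothalamus, muscle, pancreas, liver and white adipose, with open symbols for values under the bound, drawn at the bound. The hypothalamus and muscle values of Eef1a2, 10502 and 31556, stand above all 3 other tissues, none of which was over its bound.

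Among genes that textbooks give to both brain and muscle, some were called in 1 direction and 1 was counted as high in both. Of 26 on the arrays, 2 were called higher in hypothalamus (7.69%) and 5 in muscle (19.2%), against 1.19% and 4.56% of all genes. The 1 of the 26 counted as high in both was Eef1a2, and this rule held for 0.196% of all genes. Ndrg4, a gene of brain and heart, had 6490 in hypothalamus and 199.4 in muscle, at least 6.09-fold higher, and Pea15a, a phosphoprotein abundant in astrocytes, had 6668 and 836.8, at least 6.26-fold higher. The small heat shock protein Hspb1 had 458.5 in hypothalamus and 7271 in muscle, 15.9-fold higher in muscle, and its relative Cryab had 2227 and 12586, 5.65-fold higher in muscle. Scaling to spiked-in controls ended the call of Cryab. Ank1, an ankyrin that ties membrane proteins to the cytoskeleton, had 2315 and 7188, 3.11-fold. Camk2b, a calmodulin-dependent kinase of neurons and muscle, had 4070 and 275.1, at least 2.48-fold. Gabarapl1, of the autophagy machinery, had 5644 and 2137, 2.64-fold, so these last 3 did not pass the threshold.

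Few ribosomal and proteasome genes were called, though for hypothalamus at shares above that of all genes. Of 41 ribosomal protein genes 1 was called each way (2.44%), against 1.19% of all genes for hypothalamus and 4.56% for muscle. Above both bounds were 33, with a median log2 ratio of -0.01 against -0.74 over all genes measured in both. This median was 0.33 with scaling to the 75th percentile, 0.36 with quantile normalization and 0.47 with spiked-in controls, so its sign depends on the scaling. Rps3 had 13072 in hypothalamus and 13616 in muscle, 1.04-fold. The 2 called genes were Rpl3, with 14342 in hypothalamus and 2170 in muscle, 6.61-fold higher in hypothalamus, and Rplp0, a stalk protein, with 9003 and 41801, 4.64-fold higher in muscle, a call lost under scaling to the 75th percentile, spiked-in controls and quantiles. Of 30 proteasome and ubiquitin genes 18 were above both bounds and 10 above the hypothalamus bound alone, with a median log2 ratio of -0.14 for the 18. Of the 30, 1 was called for hypothalamus (3.33%, against 1.19% of all genes) and 0 for muscle. It was Skp1 of ubiquitin ligases, with 9575 and 1863, 5.14-fold higher in hypothalamus.

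Once the median shift was taken out, some genes lay within a narrow margin of equality between the tissues. Among the genes alike under the main setting, the 10 with the highest lower value were the ribosomal protein genes Rpl37a, Rpl6, Rps15 and Rpl23, the respiratory chain genes Atp5l, Cox7a2, Atp5md and Cox6c, the autophagy receptor gene Sqstm1 and the corepressor gene Tle5. Rpl37a had 12979 in hypothalamus and 23978 in muscle, and Sqstm1 had 10366 and 18740. Rpl6 had 10785 and 15893, while its other probe set read the other way at 11519 and 8793. Of the 485 genes measured in both tissues within 2-fold, 264 (54.4%) were above the bound in each of pancreas, liver and white adipose and 12 (2.47%) in none of them. Among the 73 hypothalamus genes 21 (28.8%) were above the bound in each of these 3 tissues and 28 (38.4%) in none, and among the 280 muscle genes 79 (28.2%) were in each and 61 (21.8%) in none.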

How the data were processed

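Total RNA of hypothalamus and muscle of adult female C57BL/6 mice was hybridised to Affymetrix chips A and B, 1 array per tissue and chip, per the labels. The authors deposited linear intensities, from which some signal had been subtracted, since some lie below 0. The 2% trimmed means of the 4 deposited intensity columns lie between 500.8 and 501.4, so arrays had been brought to a common level before deposit. Software used for this is not given in the sources used here.

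From these values, 61 controls per chip were left out, and arrays were scaled so that the 2% trimmed means of the 5 arrays of a chip became equal. The noise bound, the size of the 1st percentile, and the 4-fold rule are as in the results. Probe sets were named through the platform annotation: 5541 of chip A and 2001 of chip B had 1 gene, 197 and 27 several, and 785 and 4506 none. Symbols were updated by gene identifier from a RefSeq table of GRCm38.p6, and 5532 and 1993 probe sets had a symbol there. Where several probe sets named a gene, the 1 ranked highest by mean log2 intensity on its chip, over all 5 arrays, stood for it. The probe sets of a gene can disagree, and levels of different probe sets were not compared. List medians use log2 ratios with values under the higher of the chip's bounds raised to it.

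Named genes are the 12 with the largest fold in each direction, the 8 with the largest lower value among those high in both tissues, from each of 30 lists the 4 with the largest fold in each direction and the largest value measured in both, all isoform pair members, 10 genes alike after the median shift was taken out, and the markers Ckm, Pvalb, Syp and Thy1. Adipoq, Alb, Apoa2, Chgb, Cidec, Gh, H19, H2-Q10, Nnat, Peg3, Prl, Scg2, Scg5, Serpina1a, Snrpn, Sst, Tnnc1 and Trh were chosen after their values were seen. The comparison, the lists, the pairs and the rules were chosen with earlier results of these data known, so none is independent evidence. The alternatives were other scalings, bounds, folds and sets of probe sets, and 2 of them, the removal of family designs alone and the joint change of scaling and bound, were chosen after seeing the data. The comparison was tested on simulated data. Python 3.11.15, numpy 2.4.6, pandas 2.3.3 and matplotlib 3.10.9 were used. No count test fits intensities without replicates, so no p-value was computed.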

Additional observations from a re-analysis of the deposited data

How the results depend on the processing

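The main counts were 131 probe sets called for hypothalamus, 454 for muscle, 1475 measured in both, 16 high in both tissues, 5 opposite isoform pairs, and a median log2 ratio of -0.72 among those measured in both. Quantile normalization gave 244 hypothalamus calls, 209 muscle calls, 39 high in both and a median of -0.069. Scaling to spiked-in controls gave 259, 266, 85 and -0.17, and scaling to the 75th percentile gave a median of -0.46. The higher bound for both arrays gave 176 muscle calls, 941 measured in both and a median of -0.12. That bound joined to scaling to the 75th percentile gave 151 muscle calls and a reversed median of 0.036. With no bound and low values raised to the chip's median, 822 were called for hypothalamus, 993 for muscle, 4796 were measured in both, 132 were high in both, 11 pairs were opposite and the median was -0.37. An 8-fold rule gave 23 and 148 calls, 1 high in both (at 4-fold) and 1 pair, and a 2-fold rule gave 407 and 940 calls, 46 high in both (at 1.5-fold) and 9 pairs. Without all probe sets of relaxed design, which most are by their suffix, 13 hypothalamus and 89 muscle calls, 212 measured in both, 0 high in both and 0 opposite pairs were left, with a median of -0.98. Without family, rules-relaxed and incomplete designs alone, 85 hypothalamus calls, 1 pair and a median of -0.84 were left. Among named genes called for hypothalamus, 36 in all, 5 lost the call with the 0.5th percentile as the bound (Ckmt1, Eno2, Gad1, Gap43 and Stmn1) and none with another scaling. The scalings to the 75th percentile and to spiked-in controls raise hypothalamus over muscle ratios, so they could not end a hypothalamus call. Quantile normalization moved the median the same way. These kept calls are therefore no measure of how firm the hypothalamus calls are beside the muscle calls. Of 58 called for muscle, 9 lost it with the 75th percentile, 14 with spiked-in controls, 15 with the higher bound for both arrays and 16 with quantile normalization, under which Gapdh reversed to 0.89 for muscle over hypothalamus. Where the cause of a moved value is not given by the setting itself, it was not tested. Direction counts and the median shift cannot be read apart from the bounds, and hypothalamus signals under 4262 on chip A and 6558 on chip B could not be called. No paired analysis was possible because each tissue has 1 array per chip and no result comes from a test.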

Other observations

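Imprinted genes, expressed from a single parental copy, were not among the lists and were picked after their values were seen. Of 6 looked at, 4 were called higher in hypothalamus and 1 in muscle, against 1.19% and 4.56% of all genes. Because the 6 were so picked, these counts say nothing of imprinted genes as a set. Ndn is described above, and Snrpn, of the splicing machinery of brain, had 13113 in hypothalamus and 612.4 in muscle, at least 8-fold higher. Peg3, a zinc finger gene, had 7756 and 148.3, at least 7.28-fold higher, and Nnat, neuronatin, had 7707 and -48.1, at least 7.23-fold higher. H19, a noncoding RNA, had 668.0 in hypothalamus and 20294 in muscle, 30.4-fold higher in muscle. Its neighbour Igf2 had 923.0 and 2142, 2.32-fold, and did not pass the threshold.

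Genes known from liver or pancreas were among the muscle calls, and 9 were picked after their values were seen, all 9 called and 6 highest in the liver array. That all 9 were called follows from the choice and says nothing of such genes as a set. With the higher bound used for both arrays 2 of the 9 stayed called, Alb and H2-Q10, and the calls of Apoa2 and Serpina1a were lost. Alb, serum albumin, had 149.9 in hypothalamus and 8226 in muscle, at least 12.7-fold higher in muscle, beside 26265 in pancreas and 18122 in liver. Apoa2, an apolipoprotein of liver, had 402.0 in hypothalamus and 4023 in muscle, at least 6.19-fold higher, beside 25926 in liver. Serpina1a, a protease inhibitor of liver, had 481.4 and 2787, at least 4.29-fold higher, beside 28662 in liver. Where the RNA of these genes in the muscle sample came from was not tested.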
